A study of Homo sapiens with 8 samples.

Results

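RNA-seq counts of 10 genes, immediate early genes of the EGR, NR4A and IER groups and the corepressors of the EGR factors, were examined in triple-negative breast cancer (TNBC) cells exposed to Acetalax. They are the zinc finger factors EGR1, EGR2 and EGR3, their corepressors NAB1 and NAB2, the orphan nuclear receptors NR4A1 and NR4A2, and the immediate early response genes IER2, IER3 and IER5. The members were chosen by gene symbol, 1 row each, and are 10 of the 55679 gene identifiers in the deposited table. All 10 passed the filter on low counts.

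Acetalax (oxyphenisatin acetate) is a former laxative that kills sensitive TNBC cells, and the ion channel TRPM4 was studied as its target. The established TNBC lines MDA-MB468 and BT549 were each used as parental cells and as CE cells. The CE cells are resistant clones derived from the same parental line by chronic exposure to rising Acetalax, up to 40 μmol/L, and were kept free of the drug for 2 weeks before the experiment. Each of these 4 backgrounds gave 1 control library without the drug and 1 library after 1 μmol/L Acetalax for 6 hours, so that 8 libraries stand for 8 conditions. No condition has a replicate library. The 4 backgrounds or the 2 lines therefore take the place of replicates in the tests, and CE cells are not independent of the parental cells they came from. The question put to these genes was whether Acetalax changed their transcripts in each background, and whether CE cells differed from parental cells. Only 6 hours of treatment was sampled, so earlier changes would not be seen.

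Immediate early genes are transcribed within minutes of a growth factor, calcium or stress signal, without the need for new protein. MAP kinases act on them through SRF, which binds at CArG boxes, through ELK factors, and through CREB at cAMP response elements (CRE). EGR proteins bind GC-rich sites, and the NAB proteins bind EGR proteins and repress them, which closes a feedback loop. NR4A receptors act without a known classical ligand, and their activity depends in part on their amount. Only transcripts were measured here, not receptor activity.

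Libraries held from 42261122 to 54241728 counts on genes, with a median of 48064282, and levels are given as CPM, counts scaled to the library total, where 1 CPM stands for 42.3 to 54.2 counts. The lines carried their usual markers. EPCAM was between 409 and 438 CPM in MDA-MB468 and at most 0.189 CPM in BT549, and VIM was at most 8.94 CPM in MDA-MB468 and between 864 and 1414 CPM in BT549. Of markers of blood cells, CD3E and HBB were at 0, CD79A was at most 0.226 CPM and PTPRC at most 0.756 CPM in every library. The TRPM4 transcript was measured at 14.4 to 60.2 CPM. In both CE lines the study reported TRPM4 protein as almost undetectable and the transcript as unchanged. In the control libraries here, the transcript was at 49.0 CPM in parental and 60.2 CPM in CE cells of MDA-MB468. In BT549 it was at 20.1 CPM in parental and 31.6 CPM in CE controls, 1 library each. A log2 ratio of 2 libraries was taken on CPM + 0.1 and is given with a 95% counting interval of the count ratio, without that addition, which covers counting error only and no biological spread. Against its control, the BT549 CE Acetalax library had a median log2 ratio of -0.19 over the 19693 genes tested, against -0.05 with TMM scaling, and the other Acetalax pairs had medians between -0.10 and -0.06.

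Promoter sequences of RefSeq (GRCh38.p14) ran from 250 bases before to 50 bases after a start site. They were searched on both strands for 7 of the 10 genes, with 12 promoters among them. Promoters of EGR3, NR4A2 and IER3 were not among these 12, so the matches given for members leave these genes out. A CArG box was present in promoters of EGR1 and EGR2 and in 1.29% of all 35116 promoters. An EGR site, GCGTGGGCG or GCGGGGGCG, was present in promoters of NAB1 and NAB2 and in 5.77% of all promoters. The first 2 sequences below are shown for the box at which SRF is known to bind, and the other two for the site at which EGR proteins are known to bind. Each runs 5′ to 3′ over the 150 bases before the start site, and capitals mark the CArG boxes in EGR1 and EGR2 and the EGR sites in NAB1 and NAB2.
EGR1, chr5:138465329-138465478, plus strand: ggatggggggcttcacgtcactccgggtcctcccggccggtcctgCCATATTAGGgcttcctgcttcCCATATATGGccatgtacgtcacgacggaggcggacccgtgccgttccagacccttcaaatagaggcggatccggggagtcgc
EGR2, chr10:62816367-62816516, minus strand: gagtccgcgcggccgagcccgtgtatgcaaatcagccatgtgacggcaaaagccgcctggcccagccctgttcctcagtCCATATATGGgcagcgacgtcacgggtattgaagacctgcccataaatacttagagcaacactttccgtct
NAB1, chr2:190648745-190648894, plus strand: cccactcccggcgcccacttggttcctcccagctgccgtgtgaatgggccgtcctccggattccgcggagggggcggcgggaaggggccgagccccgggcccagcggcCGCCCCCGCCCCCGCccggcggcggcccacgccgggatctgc
NAB2, chr12:57088964-57089113, plus strand: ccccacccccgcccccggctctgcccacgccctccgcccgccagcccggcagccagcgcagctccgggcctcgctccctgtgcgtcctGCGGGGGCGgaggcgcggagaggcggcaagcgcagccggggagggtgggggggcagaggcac
In EGR1 the boxes ran from base 105 to 96 and from base 83 to 74 before the start, and the EGR2 box, in 1 of its 3 promoters, from base 71 to 62. The pair of NAB1 sites, on the minus strand, overlap each other between bases 42 and 28 before the start, and another, GCGTGGGCG, lies from base 14 to 22 after it. The NAB2 site spans bases 62 to 54 before the start. A CRE (TGACGTCA, in 1.85% of all promoters), an NR4A site (AAAGGTCA, 1.22%) and an AP-1 site (TGACTCA or TGAGTCA, 4.95%) had 0 matches in the 12 promoters, and an ETS site (CCGGAAG, 10.3%) was found only in IER2 among the 7 genes. These matches are descriptions of letters and do not show binding.

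Per length of their exons (FPKM, from hg19 exon lengths), the genes covered a wide range of levels. In MDA-MB468 the median FPKM of the 4 libraries was 72.7 for EGR1, 69.7 for IER5, 64.1 for IER2 and 31.5 for IER3. NAB2 at 12.5, NAB1 at 9.73, NR4A1 at 4.67 and NR4A2 at 3.20 FPKM followed, and EGR3 at 0.496 and EGR2 at 0.260 FPKM were lowest. In BT549 the order was EGR1 (59.4 FPKM), IER2 (27.0), IER3 (25.6), NAB2 (21.4), IER5 (12.3), NAB1 (3.29), NR4A2 (3.03), NR4A1 (1.40), EGR2 (0.966) and EGR3 (0.162). Neighbours in these orders mostly overlapped over the 4 libraries of a line, such as EGR1 (64.5 to 113 FPKM) and IER5 (60.2 to 134 FPKM) in MDA-MB468. EGR1 made up 96.3% to 99.4% of the summed FPKM of EGR1, EGR2 and EGR3 in every library, so EGR2 and EGR3 were minor transcripts of the family throughout.

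**Figure D1:**
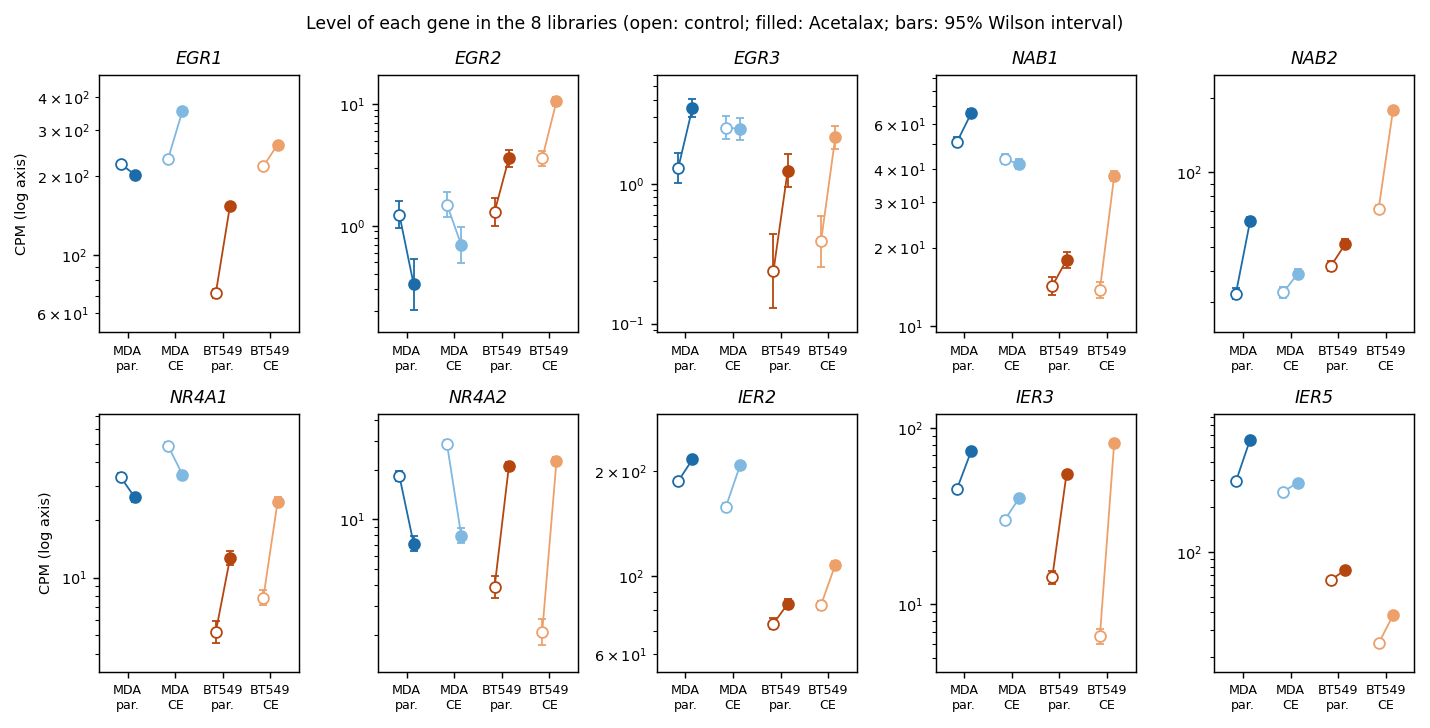
CPM on a log axis for each of the 10 genes in MDA-MB468 parental (par.), MDA-MB468 CE, BT549 parental and BT549 CE cells, with open points for control and filled points for Acetalax, joined within a background, and bars for the 95% Wilson interval of counting error. NR4A2 goes down in both MDA-MB468 backgrounds (from 18.4 to 7.12 CPM in parental cells) and up in both BT549 backgrounds (from 3.88 to 21.0 CPM in parental cells).

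EGR1 (ENSG00000120738, hg19 chr5:137801179-137805004, plus strand) encodes the zinc finger factor that is the best known growth factor response gene of the family. In MDA-MB468 it was at 223 CPM in parental control cells, 202 with Acetalax, 233 in CE control cells and 354 with Acetalax. In BT549 the same 4 libraries had 71.3, 154, 218 and 264 CPM. The lowest level of the series was thus the BT549 parental control, and the other 7 libraries were at 154 CPM or more. The log2 ratio of Acetalax against control was -0.14 (counting interval -0.18 to -0.10) in MDA-MB468 parental cells, 0.60 (0.57 to 0.64) in MDA-MB468 CE, 1.11 (1.05 to 1.18) in BT549 parental and 0.27 (0.24 to 0.31) in BT549 CE cells. EGR1 was past a 2-fold ratio in 1 of the 4 pairs.

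EGR2 (ENSG00000122877, hg19 chr10:64571756-64679660, minus strand) is a family member best known from myelinating Schwann cells. Its MDA-MB468 levels were 1.23 CPM in parental control cells, 0.329 with Acetalax, 1.49 in CE control cells and 0.694 with Acetalax, that is 60, 16, 66 and 33 counts. BT549 libraries had 1.30, 3.59, 3.58 and 10.5 CPM in that order, from 55 to 533 counts. Treated libraries were below both controls in MDA-MB468, whereas in BT549 the treated parental library was level with the CE control and the treated CE library was the highest of all. The log2 ratios were -1.64 (-2.80 to -1.09) and -1.01 (-1.76 to -0.48) in MDA-MB468 parental and CE cells, and 1.40 (1.01 to 1.93) and 1.53 (1.32 to 1.80) in BT549 parental and CE cells.

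EGR3 (ENSG00000179388) is a family member known for its roles in muscle spindles and lymphocytes. It was at 1.30, 3.50, 2.51 and 2.48 CPM in MDA-MB468 parental control, parental Acetalax, CE control and CE Acetalax cells. In BT549 the values were 0.237, 1.24, 0.387 and 2.16 CPM, and the controls rest on 10 and 21 counts. Both treated BT549 libraries lay above both controls, and in MDA-MB468 only the parental pair differed beyond counting error. The log2 ratio was 1.37 (1.01 to 1.88) in MDA-MB468 parental, -0.02 (-0.41 to 0.37) in MDA-MB468 CE, 1.99 (1.40 to 3.53) in BT549 parental and 2.21 (1.79 to 3.23) in BT549 CE cells.

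NAB1 (ENSG00000138386, hg19 chr2:191511472-191557492, plus strand) encodes 1 of the corepressors of EGR proteins. MDA-MB468 libraries held 51.1, 66.0, 44.0 and 41.8 CPM in parental control, parental Acetalax, CE control and CE Acetalax cells. BT549 libraries held 14.2, 17.9, 13.8 and 37.6 CPM. Every MDA-MB468 library was above every BT549 library, and the treated BT549 CE library stood well above the other 3 of its line. The log2 ratio was 0.37 (0.29 to 0.45) and -0.07 (-0.17 to 0.02) in MDA-MB468 parental and CE cells, and 0.33 (0.17 to 0.49) and 1.44 (1.33 to 1.57) in BT549 parental and CE cells.

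NAB2 (ENSG00000166886, hg19 chr12:57482677-57489259, plus strand) encodes the second corepressor and is itself known as an EGR1 target. It was at 32.4, 63.7, 32.8 and 39.0 CPM in the MDA-MB468 libraries, in the same order. BT549 had 41.9, 51.4, 71.3 and 178 CPM, the last being the highest of the 8. The log2 ratio was 0.97 (0.89 to 1.06), 0.25 (0.15 to 0.35), 0.29 (0.20 to 0.38) and 1.32 (1.26 to 1.37) in MDA-MB468 parental, MDA-MB468 CE, BT549 parental and BT549 CE cells. NAB2 was above 0 in all 4 pairs, with the smaller ratios in MDA-MB468 CE and BT549 parental cells. Exons of NAB2 overlap those of STAT6 on the opposite strand by 69 bp, and STAT6 had 31943 counts over the 8 libraries. Since the strand column of the counts is not given in the sources used here, reads from that overlap cannot be assigned.

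The amount of NAB transcripts set against EGR transcripts had no common direction. The ratio of summed NAB1 and NAB2 FPKM to summed EGR1, EGR2 and EGR3 FPKM went from 0.304 to 0.547 with Acetalax in MDA-MB468 parental cells and from 0.272 to 0.195 in MDA-MB468 CE cells. In BT549 it went from 0.760 to 0.429 in parental and from 0.393 to 0.800 in CE cells. NAB2 was 1.08 to 1.65 times NAB1 in FPKM in MDA-MB468 and 4.90 to 8.85 times in BT549, ranges that did not overlap.

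NR4A1 (ENSG00000123358, hg19 chr12:52416616-52453291, plus strand), also called Nur77, is an orphan nuclear receptor known for roles in cell death and metabolism. The MDA-MB468 levels were 33.6 CPM in parental control, 26.2 in parental Acetalax, 48.7 in CE control and 34.5 in CE Acetalax cells. The BT549 levels were 5.18, 12.6, 7.85 and 25.0 CPM. Both treated BT549 libraries exceeded both BT549 controls, and each still lay below every MDA-MB468 library. The log2 ratio was -0.36 (-0.46 to -0.25) and -0.50 (-0.59 to -0.40) in MDA-MB468 parental and CE cells, and 1.27 (1.05 to 1.51) and 1.66 (1.51 to 1.83) in BT549 parental and CE cells. NR4A1 shares 754 bp of exon with the antisense gene NR4A1AS, which had 291 counts over all libraries.

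NR4A2 (ENSG00000153234, hg19 chr2:157180944-157198860, minus strand), also called Nurr1, is the receptor of the family known for dopamine neurons. MDA-MB468 libraries had 18.4 CPM in parental control, 7.12 in parental Acetalax, 28.7 in CE control and 7.97 in CE Acetalax cells. In BT549 it was at 3.88 CPM in parental control, 21.0 in parental Acetalax, 2.06 in CE control and 22.6 in CE Acetalax cells. The controls of MDA-MB468 were above those of BT549, and after Acetalax the order was the opposite in both parental and CE cells. The log2 ratio was -1.35 (-1.55 to -1.19) and -1.84 (-2.02 to -1.68) in MDA-MB468 parental and CE cells, and 2.41 (2.20 to 2.69) and 3.39 (3.17 to 3.75) in BT549 parental and CE cells. The last of these is a 10.5-fold ratio. The FPKM ratio of NR4A1 to NR4A2 was 1.03 and 0.956 in the MDA-MB468 controls and 2.07 and 2.44 after Acetalax. It was 0.753 and 2.14 in the BT549 parental and CE controls and 0.338 and 0.621 after Acetalax, so the balance of the receptors moved toward NR4A1 in both MDA-MB468 pairs and toward NR4A2 in both BT549 pairs.

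IER2 (ENSG00000160888, hg19 chr19:13261229-13265722, plus strand) encodes a nuclear protein induced by growth factors. It had 187, 216, 158 and 207 CPM in MDA-MB468 parental control, parental Acetalax, CE control and CE Acetalax cells. In BT549 it had 73.3, 83.5, 82.8 and 108 CPM. Each treated library was above its control by a small step, and the lines did not overlap. The log2 ratios were 0.21, 0.40, 0.19 and 0.38 in MDA-MB468 parental, MDA-MB468 CE, BT549 parental and BT549 CE cells, the narrowest range of the 10 genes.

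IER3 (ENSG00000137331, hg19 chr6:30710976-30712331, minus strand), also called IEX-1, is a stress-induced gene known to affect cell survival. Its levels were 45.2, 74.2, 30.0 and 39.9 CPM in the MDA-MB468 libraries in the same order. In BT549 they were 14.2, 54.9, 6.58 and 81.6 CPM, so the CE control was the lowest and the CE Acetalax library the highest of the 8. The log2 ratio was 0.71 (0.64 to 0.79) and 0.41 (0.31 to 0.51) in MDA-MB468 parental and CE cells, and 1.94 (1.82 to 2.08) and 3.61 (3.48 to 3.79) in BT549 parental and CE cells. The BT549 CE value, a 12.2-fold ratio on CPM + 0.1, was the highest of the 40 Acetalax ratios of these genes.

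IER5 (ENSG00000162783, hg19 chr1:181057638-181059977, plus strand) encodes a partner of the phosphatase PP2A and of the heat shock factor HSF1. The MDA-MB468 libraries had 295, 562, 253 and 290.3 CPM and the BT549 libraries 65.1, 76.2, 24.6 and 37.8 CPM, in the same order. All 4 MDA-MB468 libraries were above all BT549 libraries. The log2 ratios were 0.93, 0.20, 0.23 and 0.62 in MDA-MB468 parental, MDA-MB468 CE, BT549 parental and BT549 CE cells.

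The number of members past a 2-fold ratio differed between the lines, in parental cells by a margin that depended on scaling. Counted in either direction, 3 members in MDA-MB468 parental and 6 in BT549 parental cells were past it, and 5 and 6 with DESeq2 size factors. In MDA-MB468 parental cells 1 of 10 had a log2 ratio of at least 1 (EGR3), against 5.13% of all genes tested, and 2 had a ratio of -1 or less (EGR2 and NR4A2), against 5.66%. The MDA-MB468 CE pair had 0 members higher, against 2.6% of all genes, and EGR2 and NR4A2 lower, against 4.34%. In BT549 parental cells 6 members (EGR1, EGR2, EGR3, NR4A1, NR4A2 and IER3) were higher, against 3.17% of all genes, and 0 lower, against 2.88%. In BT549 CE cells 7 members (EGR2, EGR3, NAB1, NAB2, NR4A1, NR4A2 and IER3) were higher, against 4.21%, and 0 lower, against 12.2%. All 10 members were above 0 in both BT549 pairs, against 25.3% of all genes (40.3% in the parental and 35.4% in the CE pair). In MDA-MB468, 6 were above 0 in parental cells, against 40.8%, and 5 in CE cells, against 40.3%. The median ratio of the members was 0.29 in MDA-MB468 parental, 0.09 in MDA-MB468 CE, 1.19 in BT549 parental and 1.49 in BT549 CE cells. Of the 10 genes, NAB2, IER2, IER3 and IER5 were above 0 in all 4 pairs, against 10.5% of all genes, while EGR2, NR4A1 and NR4A2 were below 0 in both MDA-MB468 pairs and above 0 in both BT549 pairs, against 6.77%.

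**Figure D2:**
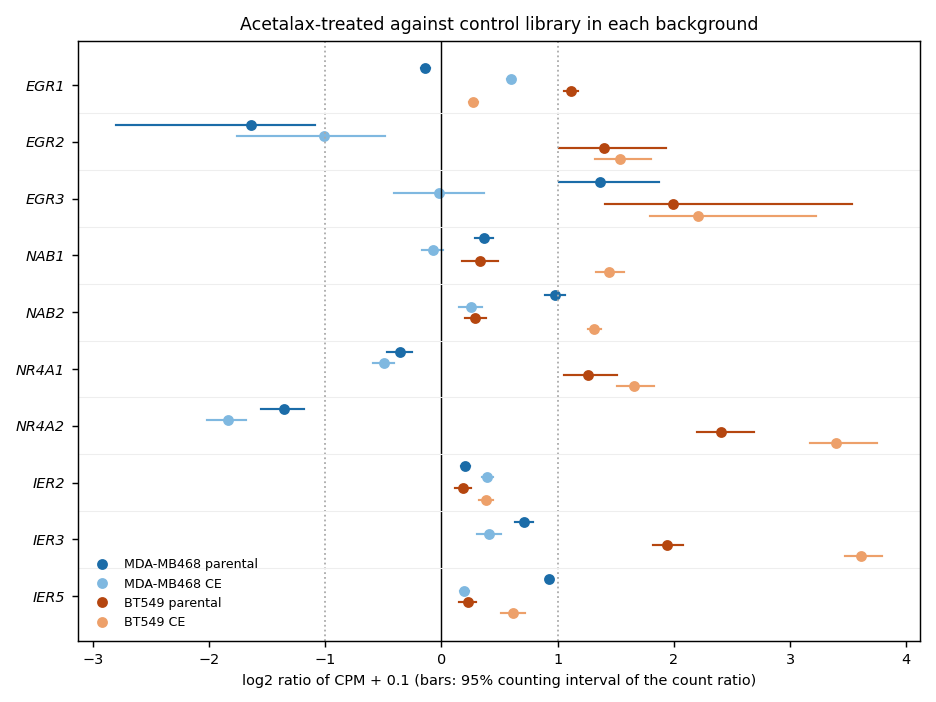
Log2 ratio of CPM + 0.1, Acetalax against control, for each gene in the 4 backgrounds (1 color each), with bars for the 95% counting interval and dotted lines at ratios of -1 and 1. EGR2, NR4A1 and NR4A2 split by line around 0, and the IER2 points lie close together between 0.19 and 0.40.

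Over the 4 backgrounds together, no member passed the test for Acetalax. The edgeR quasi-likelihood test with Benjamini-Hochberg adjustment called 984 of 19693 genes, 536 of them higher (2.72%), and 0 of the 10 members. At an unadjusted p under 0.05, 7 of the 10 members were past the threshold, all higher with Acetalax, against 12.5% of all genes. IER5 had a log2 fold change of 0.58 ± 0.14 (SE, adjusted p = 0.0539 in edgeR), IER2 of 0.38 ± 0.09 (0.0559) and NAB2 of 0.80 ± 0.20 (0.0570). EGR3 had 1.52 ± 0.43 (edgeR adjusted p = 0.0741), IER3 1.71 ± 0.51 (0.0837), EGR1 0.55 ± 0.19 (0.108) and NAB1 0.60 ± 0.24 (0.158). The 3 that missed the unadjusted threshold were those with opposite signs in the lines, NR4A1 at 0.59 ± 0.39, NR4A2 at 0.69 ± 1.04 and EGR2 at 0.31 ± 0.61. DESeq2 in place of edgeR called EGR3, NAB2, IER2 and IER5 higher, but it called more genes altogether, 2930 of 19693, 1304 of them higher. In edgeR, leaving out the MDA-MB468 parental pair took the count over all genes from 984 to 0.

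The response of the lines differed for NR4A1, NR4A2 and EGR2. With a term for the difference between the lines, in which parental and CE cells stand in for replicates, edgeR called 351 genes, 105 of them with a larger change in BT549 (0.533% of the genes tested). Of the members 3 of 10 were called, all in that direction. NR4A2 had log2 changes of -1.55 in MDA-MB468 and 3.05 in BT549, a difference of 4.60 ± 0.39 (SE, edgeR adjusted p = 0.0112). NR4A1 had changes of -0.36 and 1.60, a difference of 1.97 ± 0.23 (edgeR adjusted p = 0.0214). EGR2 had -1.39 and 1.64, a difference of 3.03 ± 0.38 (edgeR adjusted p = 0.0232). Without the MDA-MB468 parental pair the EGR2 difference was 2.68 and was no longer called (edgeR adjusted p = 0.0542), whereas NR4A1 and NR4A2 were called in every alternative run.

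For the other 7 genes the difference between the lines did not pass the test. IER3 had 2.27 (95% interval 1.13 to 3.41, edgeR adjusted p = 0.0708), from 0.63 in MDA-MB468 to 2.90 in BT549, and EGR3 had 1.80 (0.49 to 3.12, edgeR adjusted p = 0.169). DESeq2 called IER3, but it called more genes altogether, 941 of 19693, against 351 in edgeR. Of the 941, 258 had a larger change in BT549, against 105 of the 351 in edgeR. The edgeR interval was -0.06 to 1.67 for NAB1, -0.20 to 1.23 for EGR1 and -0.62 to 1.12 for NAB2. It was narrowest for IER2, at -0.35 to 0.43, and -0.69 to 0.51 for IER5, so a 2-fold larger change in either line lay outside the interval of these genes.

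**Figure D3:**
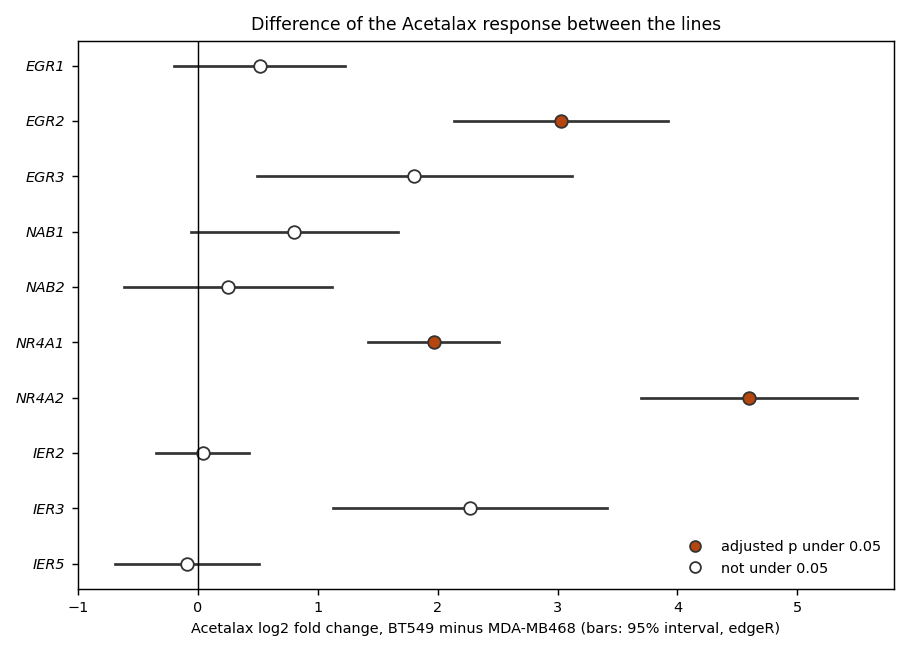
Difference of the Acetalax log2 fold change, BT549 minus MDA-MB468, for each gene on the horizontal axis, with bars for the 95% interval of the edgeR fit and filled points for an adjusted p under 0.05. The filled points are EGR2 (3.03), NR4A1 (1.97) and NR4A2 (4.60).

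Whether the response differed between CE and parental cells could not be shown for any member. edgeR called 0 of 19693 genes (0.0%), with 91 at an unadjusted p under 0.05, and DESeq2 called 0. The differences, CE minus parental, ran from -0.65 ± 0.92 (SE) for EGR3 to 0.72 ± 1.05 for IER3. In BT549 alone, where no test is possible, CE cells had a higher ratio than parental cells for 9 of the 10 genes, against 36.2% of all genes tested, the exception being EGR1 (0.27 against 1.11), with EGR1 at 71.3 CPM in the parental and 218 CPM in the CE control. In MDA-MB468 it was higher for 3 of 10, against 52.1%. The counting intervals of the BT549 parental and CE ratios overlapped for EGR2, EGR3 and NR4A1. Control levels in BT549 differed for other genes besides EGR1. There 6 of the 10 were higher in the CE control, and IER3 was lower (6.58 against 14.2 CPM).

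In control cells, CE lines were set against their parental lines. The control libraries are the same as those of the Acetalax pairs, so the ratios share them. MDA-MB468 CE cells had 0 members past a log2 ratio of 1, against 3.61% of all genes tested, and 0 past -1, against 2.74%. In BT549, EGR1 at 1.61 (1.55 to 1.67) and EGR2 at 1.39 (1.02 to 1.92) were past 1, against 7.56% of all genes, and IER3 at -1.10 (-1.31 to -0.92) and IER5 at -1.40 (-1.50 to -1.31) were past -1, against 6.58%. Their ratios in MDA-MB468 were 0.07, 0.26, -0.59 and -0.22. NR4A1 was higher in both lines, at 0.54 and 0.59, and NR4A2 differed in sign, at 0.64 in MDA-MB468 and -0.88 in BT549. IER3 was lower in both.

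**Figure D4:**
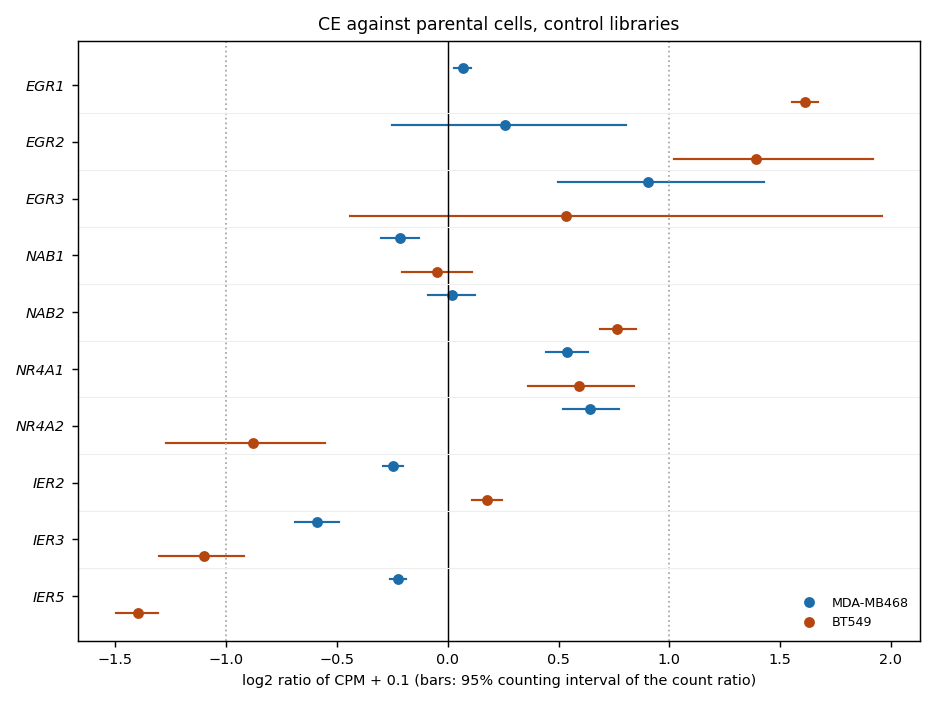
Log2 ratio of CPM + 0.1, CE control against parental control, for each gene in MDA-MB468 and BT549, with bars for the 95% counting interval and dotted lines at -1 and 1. MDA-MB468 points lie between -0.59 (IER3) and 0.91 (EGR3), and BT549 points reach from -1.40 (IER5) to 1.61 (EGR1).

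Over both lines, the edgeR test of CE against parental control cells called 0 of 18377 genes (0.0%), while 610 had an unadjusted p under 0.05, and DESeq2 called 50, none of them a member. IER3 alone among the members had an unadjusted p under 0.05, with -0.85 ± 0.25 (SE, edgeR adjusted p = 0.947). The fit has 1 residual degree of freedom, and the other members had values between -0.81 (IER5) and 0.88 (EGR2).

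Relatives and partners outside the 10 were taken from lists, to be read against 2.72% of all genes tested called higher, 2.27% called lower and a median log2 fold change of -0.04. Of 4 other family members, NR4A3, the third receptor, was called over the 4 backgrounds, at 1.66 ± 0.37 (SE, edgeR adjusted p = 0.0463). Unlike NR4A1 and NR4A2, it had no ratio below 0, on levels of 0.576 to 5.68 CPM. The ratios were 1.87 and 0.07 in MDA-MB468 parental and CE cells, and 1.57 and 2.21 in BT549 parental and CE cells. The ratio of 0.07 rests on 37 control and 42 Acetalax counts and is close to no change. The difference of NR4A3 between the lines was 0.91 (edgeR adjusted p = 0.496), and whether it differed from that of NR4A2 was not tested. EGR4 had 1.10, WT1 0.42 and IER5L -0.44, none called.

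Of 46 other immediate early genes, 45 passed the filter, 20 rose and 1 fell, with a median log2 fold change of 0.84 against -0.04 over all genes tested. FOSL1, an AP-1 subunit, had the highest value at 3.06 without being called (edgeR adjusted p = 0.0595). GEM rose by 2.61 and TNFAIP3, an inhibitor of NF-kB signalling, by 2.49, and ID1 fell by 1.02, while FOS was at -0.80 and ID2 at -0.64. The difference between the lines had no common direction in this list. There 3 genes were called with a higher change in BT549 and 2 with a lower one, against 105 and 246 of 19693 genes. TNFAIP3 was 1 of the latter, at -2.10 (edgeR adjusted p = 0.0469). Among 28 kinases and factors known to act on immediate early promoters, 4 rose, against 2.72% of all genes (SRF, which is on both lists, by 1.05, EGFR by 1.01, ELK3 by 0.99, and ELK1), and the median was 0.29 against -0.04. MKL2, a coactivator of SRF, was lowest at -0.69 and not called. Of 11 genes known as EGR1 targets, F3, the coagulation starter tissue factor, rose by 2.54 and PTGES fell by 0.58, and the other 9, NAB2 among them, were not called. The median of this list was 0.32. Of 12 partners of NR4A receptors and IER proteins, 10 passed the filter, and RXRA, the dimer partner of NR4A1 and NR4A2, fell by 0.47, with a list median of -0.11. The PP2A subunit genes PPP2R2A at 0.48 and PPP2CB at 0.47, and the phosphatase gene CDC25B at -0.55, missed the threshold.

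The transcripts most alike over the 8 libraries were found by Pearson correlation of log2(CPM + 0.1) among 11135 genes. They are a description without a test, since lines, parental cells and treatments are shared. For EGR1 these were RHOB (r = 0.944), CLPTM1L (0.925), JUNB (0.923), TRAPPC4 (0.916) and TMEM214 (0.906), of which RHOB and JUNB are themselves immediate early genes. For NR4A1 they were MYEOV2 (0.989), PSMD1, AVL9, POLR2J and CTD-2287O16.1 (0.967), and for IER3 SLC19A2 (0.987), GOLGA4, C16orf80, CHTOP and ZSWIM4 (0.949). As a scale for the members, the called genes with the largest change over the 4 backgrounds were IL1RL1 at 5.85 and IL8 at 4.24, and RP11-307C19.1 at -7.33 and RP11-794P6.1 at -3.60.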

How the data were processed

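Poly(A)-selected RNA of 8 libraries was prepared with a directional kit, and per the study's methods the authors aligned reads to hg19 with STAR (2.7.11b in the submitters' processing notes) and counted them per gene. The authors deposited unscaled counts for every gene in each library. The annotation and strand column are not given in the sources used here. Of 58154 rows, 2475 were repeats of 1392 identifiers and were dropped, none of a member. Groups were taken from the sample titles.

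CPM used the total count on genes, and FPKM used merged exons of GENCODE. Tests used the quasi-likelihood functions of edgeR (4.0.16, under R 4.3.3) with TMM scaling and filterByExpr. Benjamini-Hochberg adjustment ran over all genes tested, at a threshold of 0.05. The fits for Acetalax had 1 intercept per background, and the fit of control cells had terms for cell line and CE. Fits had 3 residual degrees of freedom for Acetalax over 4 backgrounds, 2 for differences of response and 1 for control cells. P-values measure the spread between these libraries, which are not replicates of a condition. DESeq2 1.42.0, other scalings, filters, pseudocounts and left-out pairs were alternatives. Only the edgeR code was tested on simulated counts, whose spread was fixed and not taken from these data.

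The text names all members, the 3 genes with the largest and the 3 with the smallest Acetalax change in each list, the 5 transcripts most like EGR1, NR4A1 and IER3 where the mean level reached 5 CPM, and the 2 called genes with the largest change each way. Genes named as called in a list or as markers stand besides this rule. Members and lists were chosen with earlier results of these data known.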

Additional observations from a re-analysis of the deposited data

Results flagged for a closer look

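The Acetalax responses of NR4A2, NR4A1 and EGR2 differed between BT549 and MDA-MB468 in the edgeR test of the difference itself, by 4.60, 1.97 and 3.03 on the log2 scale. In each of the 3 genes both BT549 pairs were above 0 and both MDA-MB468 pairs below 0. Each line is represented by 2 pairs, of which the CE pair comes from cells derived from the parental ones, so neither line has an independent replicate.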

How the results depend on the processing

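With 1 library per condition, values of a single pair carry counting error only, and EGR2 and EGR3 rest on few counts (10 for EGR3 in BT549 parental control cells). For Acetalax over 4 backgrounds the count of called genes, 984, was 3585 with genes of at least 1 count, 2930 in DESeq2 and 0 without the background block, and ran from 0 to 554 with 1 pair left out. The line difference, 351 genes, gave 1632 with genes of at least 1 count, 941 in DESeq2 and, with 1 pair left out, 100 to 1360. The CE difference, 0 genes, gave 3 with genes of at least 1 count and 0 to 2 with 1 pair left out, and CE against parental control cells, 0 genes, gave 45, 50 in DESeq2 and 23 with all 8 libraries. The causes were not tested.

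With 1 pair left out, the sign turned over 4 backgrounds for EGR2 (-0.30 to 0.88) and NR4A2 (-0.37 to 1.75), and in the line difference for NAB2 (-0.31 to 0.77), IER2 (-0.10 to 0.15) and IER5 (-0.44 to 0.28). None of these was called. With all 8 libraries, CE against parental turned for NAB1 (0.053), NR4A2 (0.047) and IER2 (0.088). With genes of at least 1 count, 9 of the 10 members were called higher for Acetalax over 4 backgrounds, all but EGR2. That filter called 1829 of 37154 genes higher, and 512 with a larger change in BT549 for the line difference. EGR3 was also called without the MDA-MB468 CE pair, as were 321 of 19092 genes in the higher direction. For the line difference, genes of at least 1 count added EGR3, NAB1 and IER3. Without the BT549 parental pair the difference was 1.37 for NAB1 and 3.14 for IER3. Without the BT549 CE pair it was 0.89 for EGR1 and 1.39 for IER3. Each of these left-out runs keeps only 1 BT549 pair.

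The members past 2-fold numbered 3 in MDA-MB468 parental cells, and 1 with a pseudocount of 1 CPM or on log2(FPKM + 1), 4 with TMM scaling and 5 with DESeq2 size factors. In MDA-MB468 CE cells 2 became 1 under all 5 alternatives. On log2(FPKM + 1), 6 became 3 in BT549 parental cells and 4 became 2 in the CE comparison of BT549 controls. Of 300 ratio values in alternatives, 6 changed sign, all of main ratios near 0, of EGR3 and NAB1 in the MDA-MB468 CE pair, NAB2 in the MDA-MB468 CE comparison and NAB1 in that of BT549.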
